A study of Mus musculus with 4 samples.

Results

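The respiratory chain genes described here are the 79 features whose symbols name a subunit of complexes I to IV or a mitochondrially encoded subunit of complexes I, III, IV or V, among 32285 features in the count matrices. They were chosen by symbol alone: the numbered Ndufa, Ndufb, Ndufc, Ndufs and Ndufv genes, all Uqcr genes, Sdha to Sdhd, the Cox4 to Cox8 subunit genes, and the mt- genes for Nd, Co, Cytb and Atp subunits. Of these, 66 are nuclear genes and 13 lie on the mitochondrial genome, and these 13 are all the mt- features that the matrices hold. The nuclear members comprise 36 of complex I, 4 of complex II, 8 of complex III and 18 of complex IV. Complex I also has 7 mitochondrially encoded members, complex III has 1, complex IV has 3, and complex V has 2, the Atp6 and Atp8 subunits of the ATP synthase. Ndufa4 carries a complex I name and is counted there by its symbol, although its protein is now placed in complex IV.

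The respiratory chain passes electrons from NADH (through complex I) and succinate (through complex II, which is also the succinate dehydrogenase of the citric acid cycle) to complex III, cytochrome c and complex IV, where oxygen is reduced. The proton gradient that complexes I, III and IV build drives the ATP synthase. Complex II is encoded wholly in the nucleus, whereas the others are assembled from products of both genomes, and the mitochondrial messengers are cut from long polycistronic transcripts. The share of UMIs from mitochondrial genes also serves in single-cell work as a sign of damaged cells, because cytoplasmic RNA leaks out of a broken cell more easily than mitochondrial RNA.

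Single-cell RNA sequencing libraries (10x Genomics 3' chemistry, which reads a tag close to the polyadenylated end of a transcript) were made from the subdural meninges peeled off the cerebellum of young mice, aged P6 to P8 by the sample fields and P7 to P9 by the protocol. All mice, on a C57/BL6 background, carried 1 allele of Neurod2-SmoA1, a transgene in which the Neurod2 promoter, active in granule neurons, drives an activated Smoothened. NdpWT mice were otherwise wild type, and NdpKO mice lacked Ndp, the gene for norrin, a ligand of Fzd4 in Wnt/beta-catenin signalling of endothelial cells. The 2 libraries of each genotype were each a pool of 5 cerebella, drawn from 3 litters per run, with wild-type and knockout runs matched by litter, so that no library describes a single animal. Values for the 4 libraries are given throughout in the order NdpWT replicates 1 and 2, then NdpKO replicates 1 and 2.

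The libraries held 114363848, 121735724, 123270687 and 125981161 UMIs over 14384, 19134, 12904 and 16503 barcodes. NdpKO replicate 1 stood apart before any filter: its median barcode had 1927.5 UMIs, against 4908.5, 4744.5 and 5322 in the other libraries, and 21.8% of its barcodes were above 10% mitochondrial UMIs, against 10.4%, 7.60% and 7.58%. After barcodes with under 1000 UMIs, under 500 genes or over 10% mitochondrial UMIs and called doublets were removed, 8989, 12425, 5563 and 10510 cells remained, and the kept cells of NdpKO replicate 1 were then the deepest, with a median of 14145 UMIs against 9420, 7165 and 8372. Ndp itself was near the floor, at 2.09, 1.35, 0.418 and 0.477 UMIs per 1000000 of the library (CPM). Any pair of libraries shared 48 to 98 barcode sequences. Cells fell into 17 classes, named from marker genes where these allowed it, with the members left out of the clustering, and the 11 classes that held 50 cells or more in each library were compared.

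Mitochondrially encoded members made up 3.45%, 2.97%, 4.34% and 3.38% of all UMIs of kept cells. The nuclear members made up 1.96%, 1.71%, 2.05% and 1.98% of nuclear UMIs. NdpKO replicate 1 was highest and NdpWT replicate 2 lowest for both shares, and the genotypes overlapped for the mitochondrial share, because NdpKO replicate 2 lay between the wild-type libraries. The log2 ratio of the knockout mean to the wild-type mean was 0.27 for the mitochondrial share, and 0.08 without NdpKO replicate 1. These values pool all classes, whose mix differed between libraries, and the part of that mix was not tested.

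Cell classes differed more in these shares than genotypes did. Of the 11 compared classes, arachnoid barrier-like cells had the highest mitochondrial share in 3 of the 4 libraries, with 5.35%, 4.83%, 5.56% and 5.16%; in NdpKO replicate 1 fibroblast-like cells were slightly higher, at 5.65%. Erythroid-like cells had the lowest, 1.50%, 1.24%, 1.26% and 1.30%, and also the lowest nuclear shares, 0.813%, 0.682%, 0.684% and 0.771%. Across the 11 classes classes with a higher mean mitochondrial share also had a higher mean nuclear share, with Pearson's r of 0.80 and Spearman's rho of 0.77 (r = 0.68 over the 10 classes without erythroid-like cells). These points share the same 4 libraries, and haemoglobin takes most of the RNA of red cells, so the relation is a description. By single gene, erythroid-like cells were the lowest class for 70 of the 79 members. For 12 of the 13 mitochondrially encoded members the highest class was the arachnoid barrier-like one, and nuclear members were highest most often in mural-like cells (19 of 66), in an unnamed class of low depth (18) and in fibroblast-like cells (12).

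**Figure D1:**
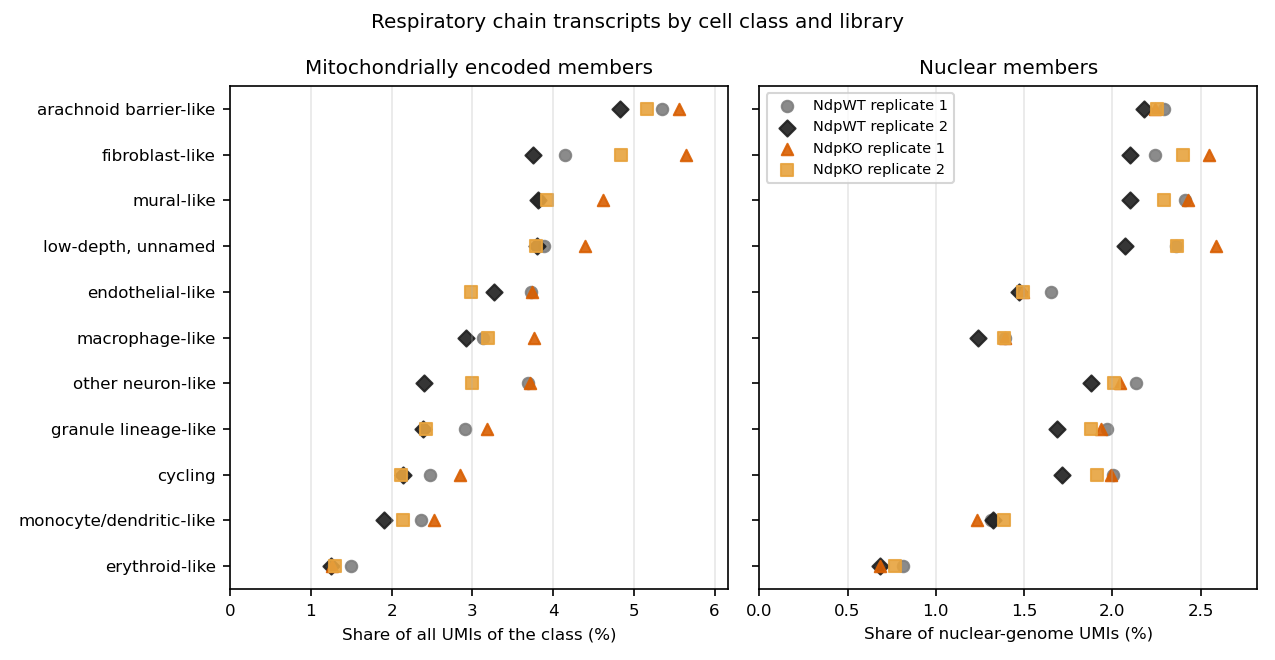
Mitochondrially encoded share of all UMIs and nuclear respiratory chain share of nuclear UMIs (both in percent, horizontal axes) in the 11 compared cell classes (vertical axis), with 1 point per library and orange for knockout and grey or black for wild type. Arachnoid barrier-like and fibroblast-like cells lie farthest to the right in the mitochondrial share, erythroid-like cells lie farthest left in both, and fibroblast-like cells are among the few classes in which the 2 knockout points lie right of both wild-type points.

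Within classes, the mitochondrial share was higher in both knockout libraries than in both wild-type libraries in 3 of 11 classes (fibroblast-like, macrophage-like and mural-like), and the genotypes overlapped in the other 8. For the nuclear share this held in 2 of 11 classes, the fibroblast-like and the low-depth one. NdpKO replicate 1 had the highest mitochondrial share in 10 of 11 classes. NdpWT replicate 2 had the lowest mitochondrial share in 8 and the lowest nuclear share in 10. With 2 libraries against 2 an exact permutation test cannot reach 0.05, and no test was made of a sum over members.

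Gene by gene, no member passed the adjusted threshold of 0.05 in any class: edgeR's quasi-likelihood test called 0 of 671 class-by-gene tests of nuclear members and 0 of 143 of mitochondrially encoded members, where it called 0.327% of all 132866 tests. DESeq2 called 0 as well, where it called 0.409% of all tests. At an unadjusted edgeR p under 0.05 there were 14 nuclear tests (2.09%) and 12 mitochondrial tests (8.39%), against 5.43% of all tests, and 10 of the 12 came from fibroblast-like cells. The smallest adjusted p was 0.207 for a nuclear and 0.140 for a mitochondrial member, and 666 of the 671 nuclear and 139 of the 143 mitochondrial log2 changes were within 0.5 of 0. Of the 79 members, 72 had enough counts to be tested in all 11 classes, Cox4i2, Cox6a2, Cox6b2, Cox7a1 and Cox8b were tested in some, and Cox7b2 and Cox8c in none. P-values rest on 2 pools per genotype.

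**Figure D2:**
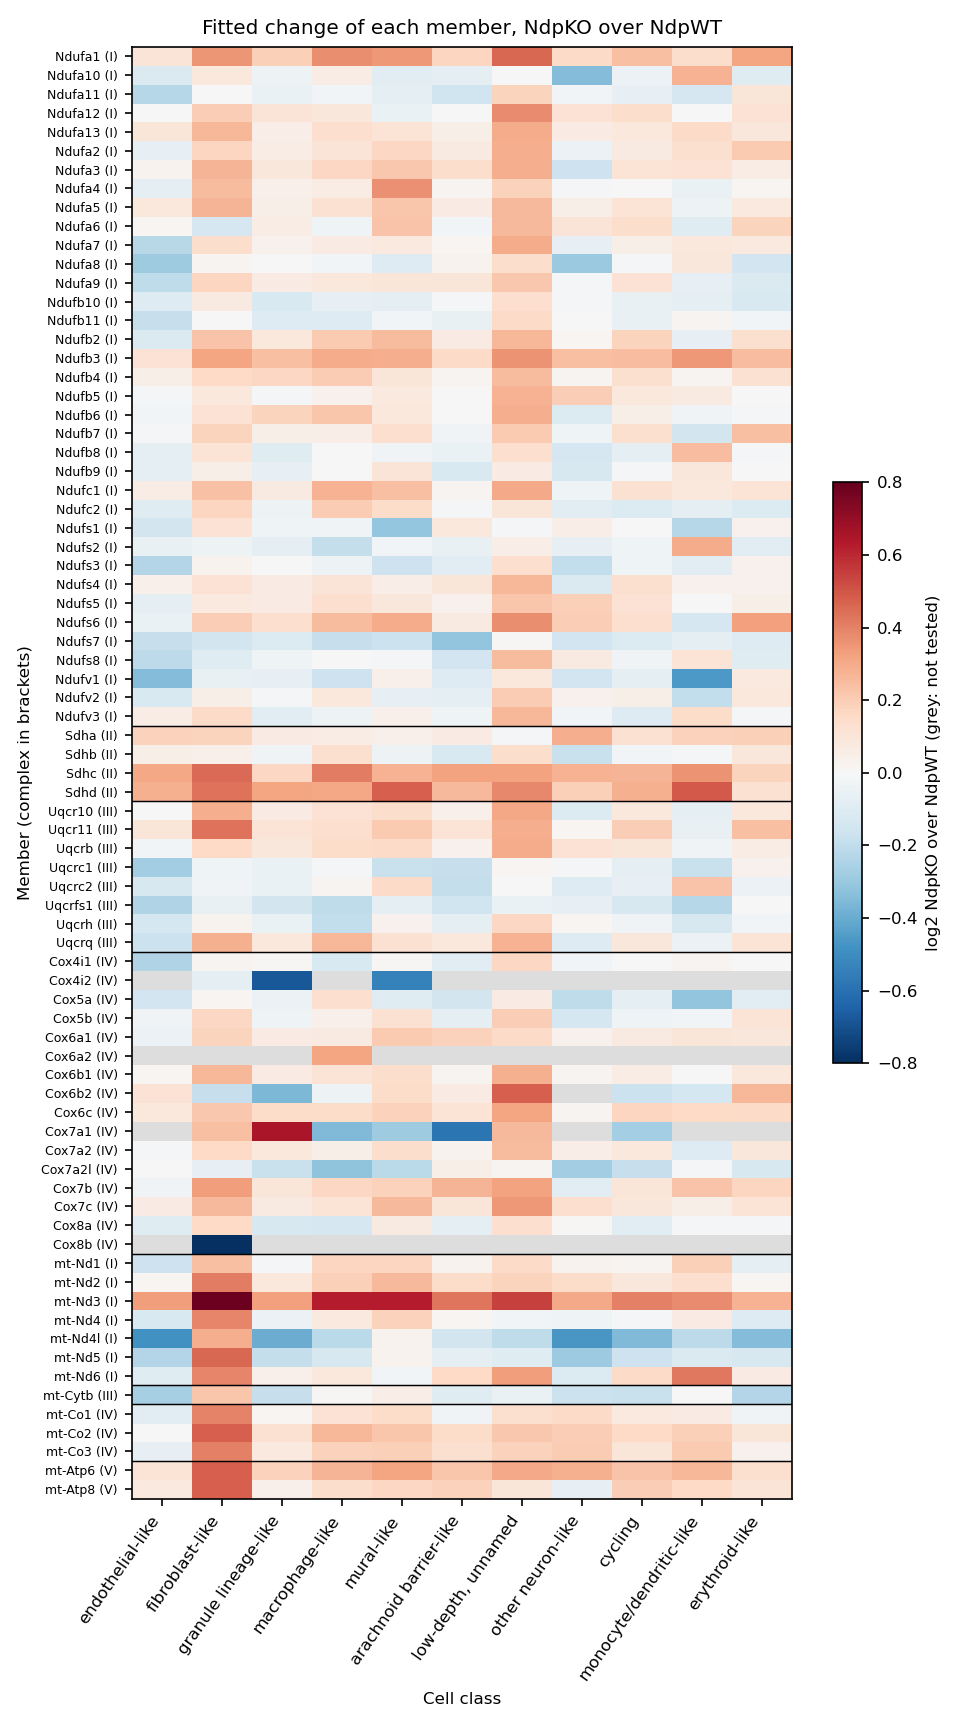
Log2 change, knockout over wild type, of every tested member (vertical axis, grouped by complex) in the 11 compared cell classes (horizontal axis), with red for higher and blue for lower in knockout, colours capped at the ends of the scale, and grey where a member was not tested. The fibroblast-like column is mostly red and holds the 13 mitochondrially encoded members at 0.22 to 0.78, and the endothelial-like column is mostly pale blue. Sdhc is red in every class, as are several other members, Sdhd and mt-Nd3 among them. No cell of the map passed the adjusted threshold.

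Fibroblast-like cells (1079, 2056, 1194 and 1871 cells), the main collagen-producing cells of the leptomeninges, had the widest genotype gap in the mitochondrial share: 4.15% and 3.76% in wild type against 5.65% and 4.85% in knockout, or 3.95% ± 0.279 and 5.25% ± 0.570 (SD, n = 2 each). The log2 ratio was 0.41, and 0.29 without NdpKO replicate 1. Their nuclear share was 2.24% and 2.10% in wild type against 2.55% and 2.40% in knockout, a log2 ratio of 0.19, and 0.14 without NdpKO replicate 1. Both shares were higher in both knockout libraries, and in each complex taken alone the groups did not overlap either. Complex I members summed to 1.02%, 0.984%, 1.14% and 1.11% of nuclear UMIs, and complex II members to 0.0461%, 0.0458%, 0.0585% and 0.0535%. Complex III members summed to 0.317%, 0.281%, 0.368% and 0.330%, and complex IV members to 0.865%, 0.785%, 0.980% and 0.905%.

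Among the 63 nuclear members tested in fibroblast-like cells, 27 were higher in both knockout libraries than in both wild-type libraries and 3 were lower, where 20.5% and 20% of all 15426 tested genes were. edgeR called 0 of the 63 at the adjusted threshold, where it called 0.0454% of all tested genes. By the fitted change, 50 were above 0, with a median log2 change of 0.15 against 0.00 over all tested genes: 30 of 36 in complex I, 4 of 4 in complex II, 5 of 8 in complex III and 11 of 15 in complex IV. At an unadjusted edgeR p under 0.05 there were 5 (all genes: 9.54%), which were Sdhc, Ndufb3, Uqcr11, Cox7b and Cox8b.

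Of complex I, Ndufb3, an accessory subunit of the membrane arm, was at 166, 152, 209 and 187 CPM in fibroblast-like cells. The groups did not overlap (log2 change 0.32, SE 0.123, edgeR adjusted p = 0.457). The members with the highest level in complex I by symbol, Ndufa4 and Ndufa13, lay at 725, 697, 845 and 850 CPM and at 751, 747, 876 and 924 CPM. Both were higher in both knockout libraries here, with adjusted p of 0.569 and 0.558 (edgeR). Ndufa4 was also higher in knockout mural-like cells, at 373, 363, 490 and 456 CPM (log2 change 0.36, SE 0.134, edgeR adjusted p = 0.468). In endothelial-like cells Ndufa4 overlapped between genotypes, at 674, 607, 592 and 628 CPM.

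Ndufa1, a small membrane-arm subunit encoded on the X chromosome and singled out here after its values were seen, split the libraries by number and not by genotype. It was at 226, 121, 269 and 174 CPM in fibroblast-like cells and at 270, 124, 265 and 185 CPM in granule lineage-like cells. In all 11 classes both libraries numbered 1 were above both libraries numbered 2, so the genotypes overlapped in each. Its fitted change had the wide SE of 0.386 in fibroblast-like cells (edgeR adjusted p = 0.845). Uqcr11, Sdhd and Cox6c had the same order of replicates within each genotype in fibroblast-like cells.

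Complex II gave the most regular difference between genotypes. Its summed share of nuclear UMIs was higher in both knockout libraries in 10 of 11 classes. Sdhc, the gene of one of the 2 membrane anchors of succinate dehydrogenase (chr1:171127165-171150603, minus strand), was at 84.0, 97.3, 133 and 115 CPM in fibroblast-like cells. Both knockout libraries were above both wild-type libraries (log2 change 0.45, SE 0.130, edgeR adjusted p = 0.289). Macrophage-like cells gave 77.5, 89.7, 122 and 99.7 CPM (log2 change 0.41, SE 0.146, edgeR adjusted p = 0.875). In endothelial-like cells Sdhc was at 56.1, 69.2, 80.7 and 76.0 CPM (edgeR adjusted p = 0.383). The groups did not overlap in 10 of 11 classes for Sdhc, the exception being erythroid-like cells, and its log2 changes ran from 0.17 to 0.45; of the 6513 genes tested in all 11 classes, 0.0614% were higher in both knockout libraries in at least 10. Ndufs6, a zinc-binding accessory subunit of complex I, was higher in both knockout libraries in 8 classes and lower in 1, where 0.491% of those genes were higher in at least 8. The classes come from the same 4 libraries and are not independent. NdpKO replicate 1 was the highest library for Sdhc and NdpWT replicate 1 the lowest in all 11 classes.

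Of the other complex II genes, Sdha and Sdhd went the way of Sdhc less regularly, and Sdhb did not. Both knockout libraries were above both wild-type libraries in 6 classes for Sdha and in 4 for Sdhd, and below in 0 for either. In any single class, 11.7% to 21.7% of all tested genes were above and 11% to 21.9% below. Of the members tested in all 11 classes, 15 were above in at least 4, so the count for Sdhd was not particular to it. For Sdhb they were above in 1 class and below in 2. The fitted log2 changes of Sdhd ran from 0.12 to 0.49 over the 11 classes. Sdhb, the iron-sulfur subunit, was at 146, 147, 147 and 155 CPM in fibroblast-like cells and overlapped between genotypes. Sdha, the flavoprotein subunit, was at 110, 118, 128 and 130 CPM there, without overlap (edgeR adjusted p = 0.683). Sdhd, the other membrane anchor (chr9:50596357-50603812, minus strand), was at 112, 73.0, 138 and 111 CPM in fibroblast-like cells, where the genotypes overlapped slightly and NdpWT replicate 2 was far below the rest. In mural-like cells Sdhd was at 81.1, 60.04, 108 and 83.7 CPM (log2 change 0.48, SE 0.200, edgeR adjusted p = 0.583), and the groups did not overlap.

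Of the 8 complex III members, 4 were higher in both knockout libraries in fibroblast-like cells and 0 were lower (all genes: 20.5% and 20%). Uqcrh, the hinge subunit, was at 804, 750, 799 and 789 CPM in fibroblast-like cells, with the knockout libraries inside the wild-type range. Uqcr11, a small accessory subunit (chr10:80402997-80406830, minus strand), was at 559, 416, 735 and 584 CPM. Its groups did not overlap, NdpWT replicate 2 being lowest (log2 change 0.44, SE 0.178, edgeR adjusted p = 0.490).

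The start regions of such nuclear genes often carry sites for nuclear respiratory factors, so the 300-base windows around the annotated starts (250 bases before and 50 after, RefSeq, GRCm38.p6) were searched on both strands for 3 exact motifs, GCGCA and GCGC with 1 base between them for NRF1, CCGGAAG for ETS factors (the family of GABP) and AAGATGGC for YY1. Windows were at hand for 53 of the 66 nuclear members. Of the 53 genes, 11 (20.8%) held the NRF1 letters, 11 (20.8%) the ETS letters and 7 (13.2%) the YY1 letters, and 26 (49.1%) at least 1 of them. Of all 32851 windows, 4.60%, 8.86%, 2.75% and 14.7% did. Sdhd and Uqcr11, whose levels in fibroblast-like cells varied most between the wild-type replicates among the complex II and III genes just described, are shown because they hold such matches, in capitals, on the strand of the gene; the Sdhd window is chr9:50603800-50604099 and the Uqcr11 window chr10:80406772-80407071, both on the minus strand. A match is a description of the letters and not evidence of binding.
Sdhd: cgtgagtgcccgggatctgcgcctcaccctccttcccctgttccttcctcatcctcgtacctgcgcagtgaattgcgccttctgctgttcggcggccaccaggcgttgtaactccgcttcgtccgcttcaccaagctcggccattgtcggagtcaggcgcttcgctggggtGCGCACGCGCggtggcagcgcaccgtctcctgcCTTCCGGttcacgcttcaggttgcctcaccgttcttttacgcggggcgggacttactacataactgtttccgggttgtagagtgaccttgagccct
Uqcr11: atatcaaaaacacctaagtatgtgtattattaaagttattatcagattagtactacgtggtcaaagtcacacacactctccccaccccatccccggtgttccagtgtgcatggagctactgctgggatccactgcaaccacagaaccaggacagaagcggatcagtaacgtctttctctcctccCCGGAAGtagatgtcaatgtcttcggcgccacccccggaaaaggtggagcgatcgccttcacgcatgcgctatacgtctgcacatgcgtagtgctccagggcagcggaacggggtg

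Among nuclear complex IV genes, Cox4i1 and Cox6c, the 2 of highest CPM over all kept cells, did not separate the genotypes in fibroblast-like cells. Cox4i1, the common form of subunit 4, was at 1255, 1419, 1298 and 1422 CPM in fibroblast-like cells. Cox6c was at 1752, 1236, 1913 and 1559 CPM there. The genotypes overlapped for both. Cox7b was at 328, 304, 423 and 375 CPM, without overlap (log2 change 0.34, SE 0.127, edgeR adjusted p = 0.443). Cox8b, a muscle-type form of subunit 8, was at the edge of detection with 17, 15, 2 and 11 UMIs in the whole class, and its fitted log2 change of -1.72 had an SE of 0.694 (edgeR adjusted p = 0.478).

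All 13 mitochondrially encoded members had a fitted change above 0 in fibroblast-like cells, from 0.22 to 0.78 with a median of 0.40, and 12 of them were higher in both knockout libraries (20.5% of all tested genes were). At an unadjusted edgeR p under 0.05 there were 10 (all genes: 9.54%), and 0 passed the adjusted threshold, the smallest adjusted p being 0.307. mt-Co2, a catalytic subunit of complex IV, was at 5241, 4954, 7453 and 6777 CPM (log2 change 0.48, SE 0.148, edgeR adjusted p = 0.311). mt-Nd5, a proton-pumping subunit of complex I, was at 785, 658, 1017 and 966 CPM (log2 change 0.46, SE 0.139, edgeR adjusted p = 0.307). mt-Nd6, the only protein gene on the light strand, was at 79.1, 71.8, 103 and 94.9 CPM (log2 change 0.39, SE 0.119, edgeR adjusted p = 0.307). In these 3 genes both knockout libraries lay well above both wild-type libraries. mt-Nd3 had the largest fitted change, 0.78 (SE 0.292, edgeR adjusted p = 0.482), and rested mostly on 1 library, with 662, 452, 1198 and 718 CPM.

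The other mitochondrially encoded members of fibroblast-like cells had fitted log2 changes of 0.22 to 0.48. mt-Co1 and mt-Co3, the remaining complex IV subunits, were at 7062, 5383, 8658 and 7750 CPM and at 7537, 7408, 10536 and 9202 CPM, both with a log2 change of 0.40. mt-Atp6 and mt-Atp8 both had a log2 change of 0.48, at 5787, 5752, 8943 and 7118 CPM and at 130, 106, 191 and 138 CPM. In each of these 4 genes NdpKO replicate 1 was highest and NdpKO replicate 2 next. mt-Nd2 and mt-Nd4, complex I subunits, were at 2211, 2076, 3139 and 2547 CPM and at 3382, 2816, 4364 and 3750 CPM. mt-Cytb, the complex III subunit, was at 6196, 4776, 6487 and 6337 CPM, with the knockout libraries just above NdpWT replicate 1 (log2 change 0.22). mt-Nd4l was at 533, 432, 566 and 614 CPM (log2 change 0.29), and mt-Nd1, at 2794, 2230, 3261 and 2668 CPM (log2 change 0.24), was the member whose genotypes overlapped.

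The difference in fibroblast-like cells was examined by cluster, by filter and without the doubtful library. In 4 of the 5 fibroblast-like clusters both knockout libraries had higher mitochondrial and higher nuclear shares than both wild-type libraries. The largest of them, cluster 3, held 40.0%, 38.4%, 48.0% and 49.0% of the class and had mitochondrial shares of 5.22%, 4.67%, 6.36% and 5.62%. Cluster 8, which held 44.9%, 36.1%, 20.02% and 24.4%, had 3.33%, 3.10%, 4.36% and 3.81%. The knockout libraries therefore held more of the cluster with the higher share as well as a higher share inside each of these clusters. The log2 ratio of the nuclear share was 0.13, 0.09, 0.07 and 0.14 in clusters 3, 8, 23 and 27, against 0.19 in the class. In cluster 8 it was 0.038 without NdpKO replicate 1. For the mitochondrial share these clusters gave 0.28, 0.35, 0.32 and 0.42, against 0.41 in the class. The part of the cluster mix in the class ratios was not tested. In cluster 14, of low depth, the mitochondrial shares were 5.07%, 2.37%, 4.16% and 3.03% and overlapped.

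Without NdpKO replicate 1, 13 of 13 mitochondrially encoded members stayed above 0 with a median of 0.30, and 53 of 63 nuclear members with a median of 0.12; edgeR then called 0 of them (all genes: 0%), with 0 at an unadjusted p under 0.05 (all genes: 4.35%). With cells of at most 5% mitochondrial UMIs, 10 of 13 and 41 of 63 were above 0, with medians of 0.16 and 0.06, and the mitochondrial share was 3.34%, 3.09%, 3.85% and 3.48% (log2 ratio 0.19). With no limit it was 4.61%, 4.17%, 6.73% and 5.67% (log2 ratio 0.50). The 10% limit removed unequal numbers of cells: of the sufficiently deep barcodes placed in the class, 7.80%, 7.58%, 16.6% and 11.1% were above it. The kept fibroblast-like cells of NdpKO replicate 1 were also the deepest, with medians of 16803, 11846, 25382.5 and 15074 UMIs. In the same cells the nuclear-retained RNA Malat1 took 3.59%, 2.98%, 2.36% and 3.22% of the UMIs from nuclear genes. Cytosolic ribosomal protein genes took 16.4%, 16.1%, 15.5% and 14.8% of them. Summed fibroblast markers stood at 19673, 19143, 18661 and 17405 CPM. The part of filter, depth and RNA quality in the difference was not tested.

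Endothelial-like cells (264, 1030, 289 and 488 cells), the class in which edgeR called the most genes overall (411 of 12302, or 3.34%), gave 0 calls among 60 nuclear and 13 mitochondrially encoded members. Their mitochondrial share was 3.72%, 3.27%, 3.74% and 2.99%, and their nuclear share 1.65%, 1.47%, 1.50% and 1.50%. Both overlapped between genotypes, with log2 ratios of -0.06 each. Of the nuclear members, 20 had a fitted change above 0 and 40 below, 3 were higher and 15 lower in both knockout libraries (all genes: 21.7% and 21.9%), and the median was -0.05. By complex, 10 of 36 in complex I, 4 of 4 in complex II, 1 of 8 in complex III and 5 of 12 in complex IV were above 0.

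Ndufv1, the subunit of complex I that binds NADH and FMN, had the lowest p of the nuclear members in endothelial-like cells, at 113.8, 105, 85.1 and 86.4 CPM. The knockout libraries were lower without overlap (log2 change -0.35, SE 0.127, edgeR adjusted p = 0.207). Next came Uqcrc1, a core subunit of complex III, at 148, 127, 111 and 115 CPM (log2 change -0.28, edgeR adjusted p = 0.370). Of the 13 mitochondrially encoded members, 0 were higher and 2 lower in both knockout libraries (all genes: 21.7% and 21.9%). The 2 were mt-Nd4l at 431, 376, 248 and 328 CPM (log2 change -0.49, SE 0.155, edgeR adjusted p = 0.140) and mt-Nd5 at 597, 560, 506 and 477 CPM (log2 change -0.23, edgeR adjusted p = 0.489). At an unadjusted edgeR p under 0.05 stood Ndufv1 and mt-Nd4l alone, where 14.1% of all genes did. Tags of other classes within these cells differed too: summed mural markers were at 141, 154, 43.0 and 81.3 CPM and summed fibroblast markers at 2820, 3248, 5675 and 4928 CPM, against 10289, 12154, 11469 and 11813 CPM for endothelial markers. Their part in these values was not tested.

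Mural-like cells (95, 311, 104 and 200 cells), which are pericytes and smooth muscle, had mitochondrial shares of 3.82%, 3.81%, 4.61% and 3.92%. The knockout libraries were higher, by 0.16 on the log2 scale, and by 0.04 without NdpKO replicate 1. Of 62 nuclear members, 11 were higher and 6 lower in both knockout libraries (all genes: 18.4% and 18.2%), with a median log2 change of 0.09. edgeR called 0 members (all genes: 0.114%), and Cox4i2, Ndufa4, Sdhd and mt-Nd3 stood at an unadjusted p under 0.05 (all genes: 7.35%). The erythroid marker list summed to 8556, 23749, 28567 and 17596 CPM in these cells, so that RNA of red cells took a different part of each library, and its part in these values was not tested.

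Macrophage-like cells (1112, 873, 608 and 546 cells) had mitochondrial shares of 3.13%, 2.93%, 3.76% and 3.19%, higher in both knockout libraries by 0.20 on the log2 scale, and by 0.08 without NdpKO replicate 1. A cluster of low depth, cluster 18, held 16.4%, 14.5%, 32.7% and 24.2% of the class, and in the main cluster 4 the mitochondrial shares were 3.16%, 2.95%, 3.86% and 3.20%. Cytosolic ribosomal protein genes took 18.9%, 18.3%, 16.3% and 16.5% of the UMIs from nuclear genes in the class, and the part of these values in the difference was not tested. Of 62 nuclear members, 12 were higher and 7 lower in both knockout libraries (all genes: 16.7% and 16.8%), with a median of 0.07. edgeR called 0 members (all genes: 0.0161%). Beside Sdhc, the other nuclear member at an unadjusted edgeR p under 0.05 (all genes: 5.09%) was Cox7a2l. It was at 400, 469, 333 and 361 CPM, lower in both knockout libraries (log2 change -0.32, SE 0.140, edgeR adjusted p = 0.964). Cox7a2l was lower in both knockout libraries in 5 of the 11 classes, where 8.44% of the genes tested in all 11 were lower in at least 5.

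Granule lineage-like cells (2118, 2083, 702 and 2272 cells), the cells of the SmoA1 tumour lineage, showed overlapping mitochondrial shares of 2.91%, 2.39%, 3.18% and 2.43%. Their nuclear shares were 1.97%, 1.69%, 1.93% and 1.88%. Of 62 nuclear members, 5 were higher and 3 lower in both knockout libraries (all genes: 11.7% and 11%), and of the 13 mitochondrially encoded members 0 were. edgeR called 0 members and 0 genes in all; the lowest unadjusted p among nuclear members were 0.133 for Sdhd, at 67.2, 51.9, 81.0 and 67.5 CPM, and 0.20 for Cox7a1, at 1.00, 0.81, 1.61 and 1.29 CPM.

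In the low-depth class, 57 of 61 nuclear members had a fitted change above 0 and 24 were higher in both knockout libraries (all genes: 16.5%), with a median of 0.25. Its nuclear shares were 2.36%, 2.07%, 2.59% and 2.36%, so the lower knockout library was only just above the higher wild-type one. edgeR called 0 of them (all genes: 0.00778%). Cox6b2 was its one nuclear member at an unadjusted edgeR p under 0.05 (all genes: 4.07%), at 18.6, 22.7, 31.0 and 27.0 CPM. Other lists shifted in this class as well. Of the cytosolic ribosomal protein genes 78 of 80 were above 0 (median 0.16), and of the nuclear ATP synthase genes 17 of 17 (0.25). The shift was thus not particular to the respiratory chain. The class has no cell type name and pools 6 clusters that the libraries filled unequally: cluster 15, with nuclear shares of 0.77%, 1.12%, 0.75% and 0.99%, held 9.46%, 12.8%, 4.09% and 6.74% of its cells, and the part of this in the difference was not tested. Arachnoid barrier-like cells had 2 nuclear members at an unadjusted edgeR p under 0.05 (all genes: 4.16%). These were Cox7a1 at 14.4, 10.0, 9.02 and 7.39 CPM and Ndufs7, a core iron-sulfur subunit of complex I, at 218, 226, 162 and 195 CPM. Both were lower in both knockout libraries (all genes: 15.5%), and edgeR called 0 members and 0 genes in that class.

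Several complex IV subunits exist in paired forms, one general and one limited to certain tissues, and the classes differed in their use of them. Cox4i2, the form of subunit 4 known from the lung and from oxygen-sensing cells (chr2:152754173-152765037, plus strand), was found mostly in mural-like cells, which held 204 of 281, 357 of 470, 225 of 286 and 309 of 410 of its UMIs among all kept cells. There it made up 15.6%, 10.2%, 8.56% and 9.31% of Cox4i1 and Cox4i2 UMIs together. In fibroblast-like cells it made up 0.09%, 0.12%, 0.05% and 0.14%. Its level in mural-like cells was 233, 165, 124 and 144 CPM, lower in both knockout libraries (log2 change -0.54, SE 0.175, edgeR adjusted p = 0.367). NdpWT replicate 1, which has the fewest mural-like cells, was farthest from the rest. Cox4i1 did not share this order, at 1264, 1445, 1326 and 1400 CPM.

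Cox6b2, known as the testis form of subunit 6b, was a regular part of the meningeal cells. In arachnoid barrier-like cells it made up 18.1%, 19.2%, 18.6% and 19.6% of the Cox6b1 and Cox6b2 UMIs, with no order by genotype. Fibroblast-like cells gave 11.7% and 12.9% in wild type and 8.98% and 9.63% in knockout, without overlap. In granule lineage-like cells the share was 0.63%, 1.39%, 0.60% and 0.83%. The fibroblast-like difference was made of a lower Cox6b2, at 90.0, 86.0, 78.1 and 76.9 CPM (log2 change -0.18, edgeR adjusted p = 0.667), and a higher Cox6b1, at 678, 582, 791 and 721 CPM (log2 change 0.26, edgeR adjusted p = 0.598), each within what edgeR did not call. Their start windows are shown side by side because the general form holds 1 ETS match, in capitals, and the other holds 0 matches of the 3 motifs; both lie on the minus strand, at chr7:30626065-30626364 for Cox6b1 and chr7:4753045-4753344 for Cox6b2. No match says only that these letters are not in this window.
Cox6b1: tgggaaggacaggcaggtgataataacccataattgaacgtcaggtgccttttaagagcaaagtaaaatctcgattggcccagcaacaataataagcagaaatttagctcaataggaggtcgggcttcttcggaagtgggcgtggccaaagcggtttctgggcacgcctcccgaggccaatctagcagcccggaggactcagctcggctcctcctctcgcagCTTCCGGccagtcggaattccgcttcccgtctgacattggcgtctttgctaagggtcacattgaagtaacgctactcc
Cox6b2: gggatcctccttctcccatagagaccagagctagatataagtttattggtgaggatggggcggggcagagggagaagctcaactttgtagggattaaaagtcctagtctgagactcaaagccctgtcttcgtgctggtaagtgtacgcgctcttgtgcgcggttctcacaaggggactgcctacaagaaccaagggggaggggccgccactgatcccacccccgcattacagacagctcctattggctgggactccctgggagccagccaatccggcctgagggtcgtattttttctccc

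The remaining tissue-limited forms were rare. Cox7a1, the heart and muscle form of subunit 7a, made up 3.64%, 2.56%, 3.47% and 3.08% of the Cox7a1 and Cox7a2 UMIs in fibroblast-like cells and 2.68%, 2.32%, 1.52% and 2.11% in mural-like cells. In fibroblast-like cells the genotypes overlapped. Cox6a2, the muscle form of subunit 6a, reached 1.25%, 1.82%, 1.44% and 2.20% of its pair in macrophage-like cells, from 38, 30, 34 and 29 UMIs. In monocyte and dendritic-like cells it had 0, 1, 0 and 27 UMIs, so that NdpKO replicate 2, at 4.98% of the pair, stood apart from the other libraries. Over all kept cells of the 4 libraries there were 244 UMIs of Cox6a2, 82 of Cox7b2, 63 of Cox8b and 7 of Cox8c. The general forms Cox6a1, Cox7a2 and Cox8a were at 301, 295, 348 and 326 CPM, at 502, 446, 552 and 508 CPM and at 1291, 1151, 1330 and 1402 CPM in fibroblast-like cells. All 3 were higher in both knockout libraries, by margins that edgeR did not call.

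**Figure D3:**
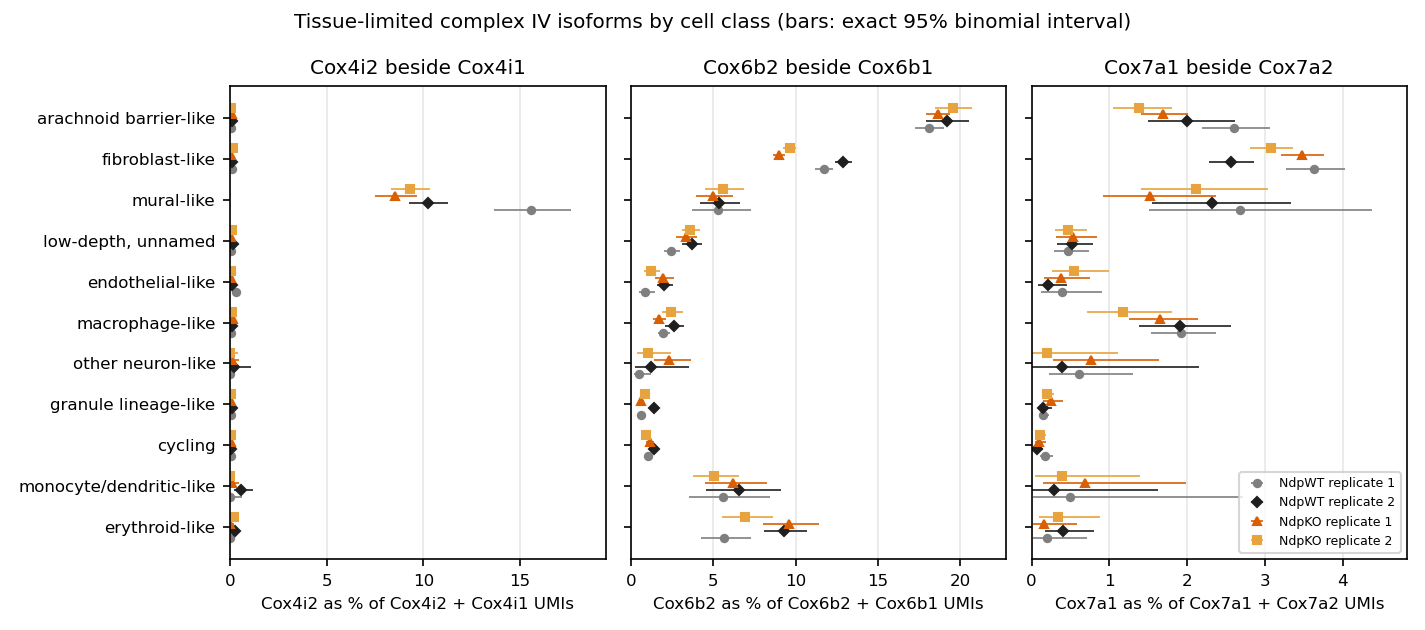
Share of the tissue-limited form among the UMIs of each complex IV subunit pair (percent, horizontal axes) in the 11 compared classes (vertical axis), with 1 point per library and 95% exact (Clopper-Pearson) binomial intervals as bars, which cover counting error only. Cox4i2 stands out in mural-like cells at 8.56% to 15.6%, and Cox6b2 in arachnoid barrier-like cells at 18.1% to 19.6% and in fibroblast-like cells at 8.98% to 12.9%.

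For some mitochondrial messengers, the share they took of mitochondrial UMIs had the same highest or lowest library in every class. By contrast mt-Nd5, mt-Nd6 and mt-Atp8, for example, were highest in different libraries from class to class. The mt-Nd5 share was nevertheless lowest in NdpKO replicate 1 in 10 of 11 classes. mt-Nd3 (M:9459-9806) made up 2.05% to 2.56% of mitochondrial UMIs in NdpKO replicate 1 over the 11 classes, against 1.56% to 2.09% in NdpWT replicate 1, 1.15% to 1.49% in NdpWT replicate 2 and 1.47% to 1.70% in NdpKO replicate 2. Its neighbour mt-Nd4l (M:9877-10173) made up 0.468% to 1.01% in NdpKO replicate 1, against 0.960% to 1.38%, 0.904% to 1.30% and 1.03% to 1.47% in the other 3 in the same order. NdpKO replicate 1 was the highest library for mt-Nd3 and the lowest for mt-Nd4l in 11 of 11 classes, while NdpKO replicate 2 lay nearer the wild-type libraries for both.

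Other members with a fixed highest or lowest library were mt-Cytb, mt-Atp6, mt-Co3, mt-Nd4 and mt-Nd2. mt-Cytb made up 7.25% to 12.4% in NdpKO replicate 1, the lowest library in 11 of 11 classes, and 9.11% to 15.4% in NdpWT replicate 1, the highest in 11 of 11. mt-Atp6 made up 16.0% to 20.2% in NdpKO replicate 1, the highest in 11 of 11, and 13.6% to 16.4% in NdpWT replicate 1, the lowest in 11 of 11. mt-Co3 was highest in NdpWT replicate 2 and lowest in NdpWT replicate 1 in all 11. In NdpWT replicate 1 mt-Nd4 was highest and mt-Nd2 lowest in 11 of 11. The 2 wild-type libraries thus differed in the same direction in every class for these members. Some of these genes overlap on the genome, mt-Atp8 and mt-Atp6 by 43 bases, mt-Nd4l and mt-Nd4 by 7, mt-Atp6 and mt-Co3 by 1, and mt-Nd5 and mt-Nd6, on opposite strands, by 14. Sequence copies of mitochondrial genes in the nuclear genome could share tags with them, and the counting of such tags is described in no source used here.

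**Figure D4:**
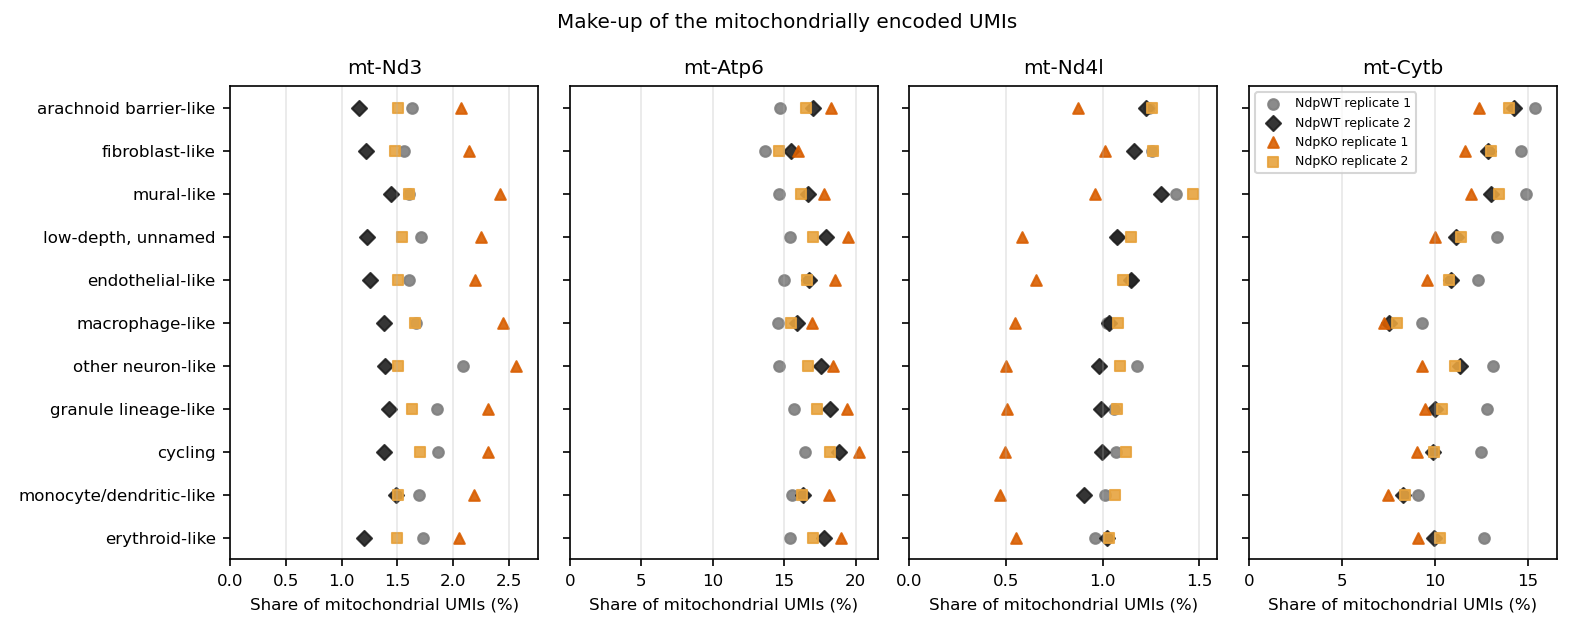
Share of mitochondrial UMIs (percent, horizontal axes) taken by mt-Nd3, mt-Atp6, mt-Nd4l and mt-Cytb in each of the 11 compared classes (vertical axis), with 1 point per library. NdpKO replicate 1 lies highest for mt-Nd3 and lowest for mt-Nd4l and mt-Cytb in every class, while NdpKO replicate 2 lies near the wild-type libraries.

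NdpKO replicate 1 was then followed over all deposited barcodes, with no filter. Barcodes with 10% to 20% mitochondrial UMIs were 7.05%, 5.96%, 12.3% and 4.89% of each library, and those with 20% to 50% were 2.78%, 1.58%, 8.45% and 2.38%. NdpKO replicate 1 held the most of both. In its 10% to 20% bin the median barcode had 741 UMIs, against 1810, 1964.5 and 2144 in the other libraries. There 36.4% of its barcodes reached 1000 UMIs and 500 genes, against 77.4%, 91.7% and 86.2% in the other libraries. Counted only over barcodes of that depth, the share above 10% mitochondrial UMIs was 12.998% in NdpKO replicate 1 against 10.4%, 9.14% and 8.83%, a smaller gap than over all barcodes.

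The nuclear members did not fall steadily as the mitochondrial share of the barcodes rose. They rose up to the 5% to 10% bin and fell from there to the 20% to 50% bin in all 4 libraries. The part of the cell mix of each bin was not tested. Their share of nuclear UMIs was 1.95%, 1.80%, 1.95% and 1.97% in the 2.5% to 5% bin and 2.32%, 2.02%, 2.46% and 2.42% in the 5% to 10% bin. It was 1.88%, 1.47%, 2.38% and 1.97% in the 10% to 20% bin and 1.58%, 1.37%, 1.62% and 1.46% in the 20% to 50% bin. The nuclear share thus peaked at 5% to 10% in all 4 libraries if the few barcodes above 50% are left aside, and NdpKO replicate 1 was not low in any of these bins. It was lowest below 2.5%, with 0.88% against 1.46%, 1.33% and 1.52%, where haemoglobin took 54.8% of its UMIs against 23.7%, 24.1% and 20.1%. The mt-Nd3 share of mitochondrial UMIs stayed highest in NdpKO replicate 1 in all 6 bins, at 2.17% to 2.66%.

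**Figure D5:**
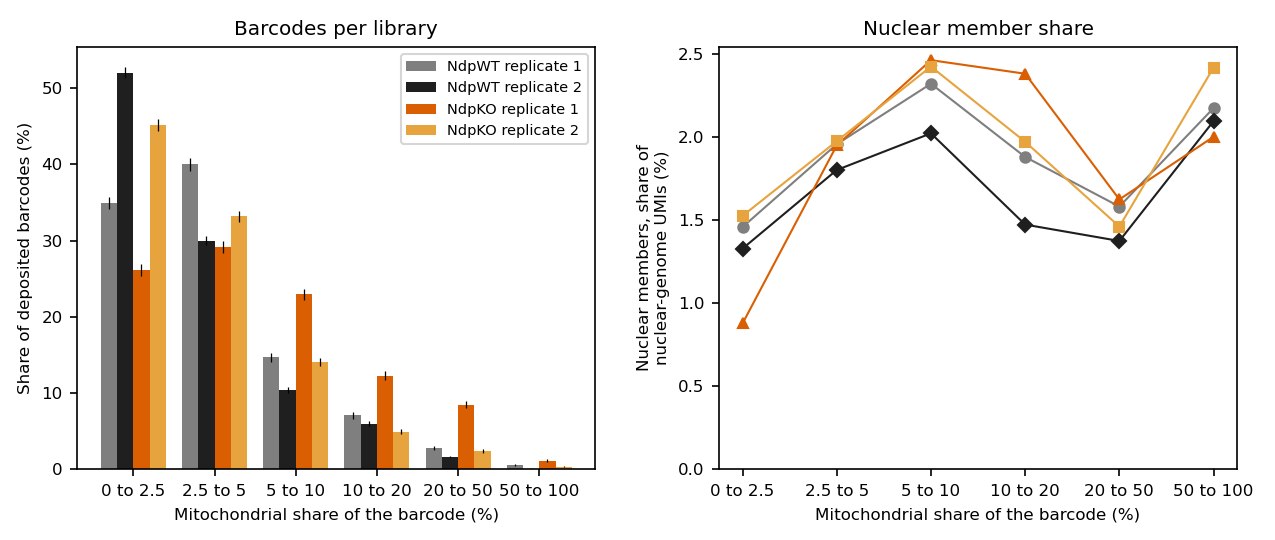
Left, percent of the barcodes of each library (vertical axis) by their mitochondrial share of UMIs in 6 bins (horizontal axis), with 95% exact binomial intervals as black bars; right, the nuclear members' share of nuclear UMIs (percent, vertical axis) in the same bins, 1 line per library. NdpKO replicate 1 holds more barcodes than the others in each bin from 5% upwards, 12.3% of them at 10% to 20%, and its nuclear share is below the others in the lowest bin, at 0.88%, and in the highest, at 2.00%.

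Related gene lists gave the surroundings of the members. The nuclear ATP synthase genes, which complete complex V, had 16 of 17 fitted changes above 0 in fibroblast-like cells (median 0.23), 14 of 17 in mural-like cells (0.10), 13 of 17 in macrophage-like cells (0.11), 10 of 17 in granule lineage-like cells (0.05) and 8 of 17 in endothelial-like cells (-0.01). Assembly factors of the chain had 34 of 46 above 0 in fibroblast-like cells (median 0.08) and 19 of 45 in endothelial-like cells (-0.04). Genes for the replication, transcription and translation machinery of mitochondrial DNA had 13 of 27 above 0 in fibroblast-like cells (median 0.00), and enzymes of the citric acid cycle 10 of 17 (0.06). edgeR called 0 genes of these 4 lists in fibroblast-like cells. For comparison, cytosolic ribosomal protein genes had 14 of 81 above 0 there, with a median of -0.15.

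In endothelial-like cells edgeR called 3 of the 221 genes tested from the related lists, or 1.36% (all genes: 3.34%). Ndufa4l2, a hypoxia-induced relative of Ndufa4 that is also a pericyte marker, had 23, 26, 4 and 3 UMIs, or 7.41, 3.18, 0.743 and 0.597 CPM, lower in both knockout libraries (log2 change -2.81, SE 0.64, edgeR adjusted p = 0.0349). The summed mural markers in these cells, on whose list it stands, were lower in both knockout libraries as well, and without NdpWT replicate 1 its adjusted p was 0.313. Mtpap, the poly(A) polymerase of mitochondrial messengers, was at 50.9, 45.8, 25.5 and 33.04 CPM (log2 change -0.72, SE 0.176, edgeR adjusted p = 0.0484; DESeq2 adjusted p = 0.152). Hspa1a, a heat-shock gene of the dissociation stress list, was at 14.5, 16.4, 27.9 and 28.7 CPM (log2 change 0.85, SE 0.185, edgeR adjusted p = 0.0284; DESeq2 adjusted p = 0.151). All 3 had groups without overlap. Of the same stress list, 1 of 24 genes was above 0 in fibroblast-like cells, with a median of -0.39.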

How the data were processed

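The files hold UMI counts per gene and barcode, 1 sparse matrix for each of the 4 libraries, as deposited by the authors and not normalised. The submitters' processing notes name Cell Ranger 6.1.2 and mm10; whether doublets or free RNA had been removed before deposit is stated in no source used here, and free RNA was not corrected for. Depth ranged from 114363848 to 125981161 UMIs per library.

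Barcodes with at least 1000 UMIs, at least 500 genes and at most 10% mitochondrial UMIs were kept, and Scrublet calls (331, 393, 133 and 378, or 3.55%, 3.07%, 2.33% and 3.47%, so doublets remain) were removed. Cells scaled to 10000 were reduced to 2000 variable genes without the 79 members and 30 principal components, and 20-neighbour graphs were clustered by Leiden at resolution 1 (scanpy 1.11.5, leidenalg 0.10.2) into 36 clusters, named by fixed markers and therefore "-like". These names are a reconstruction and may not match the authors' cell types. The arachnoid barrier-like class is cluster 12 alone. Its summed fibroblast markers were at 18317, 19034, 19600 and 19886.5 CPM, against 19673, 19143, 18661 and 17405 CPM in fibroblast-like cells, so these markers did not separate the 2 classes.

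UMI counts summed per library and class were compared with edgeR 4.0.16 (R 4.3.3; robust quasi-likelihood test, TMM, filterByExpr with a minimum count of 10, Benjamini-Hochberg adjustment over all genes of the class, threshold 0.05). The fit was tested on simulated data with 2-fold changes. Most fitted changes of members were smaller, so that simulation does not show how often changes of their size are found. DESeq2 1.42.0 was an alternative. CPM of a class use TMM factors and are not scaled by gene length, since 3' tags count transcript ends; ranks of genes by level and shares within a paralogue pair are therefore of UMIs. Log2 changes are knockout over wild type. Each member and list was chosen with earlier results of these data known. Named were all mitochondrially encoded members, the complex IV paralogues, Ndufa4, the Sdh genes, the 2 nuclear members of highest CPM in complexes I, III and IV, the 2 of lowest p in 5 main classes, and called genes of related lists; other names were picked after their values were seen. Positions are those of GENCODE M21 on GRCm38. The 6 pairs of libraries had a chi-square of 105 to 237 per degree of freedom over genes, well above sampling noise, so each counted as a library of its own.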

Additional observations from a re-analysis of the deposited data

Results flagged for a closer look

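The changes of mt-Nd4l and mt-Nd5 had opposite signs in fibroblast-like and endothelial-like cells, with every knockout library above every wild-type library in the one class and below in the other. mt-Nd4l had a log2 change of 0.29 in fibroblast-like and -0.49 in endothelial-like cells, and mt-Nd5 one of 0.46 and -0.23. Of all tested genes, 20.5% were above in this way in fibroblast-like cells and 21.9% were below in endothelial-like cells. The difference between the classes was not tested, and both classes come from the same 4 libraries. The share of mt-Nd4l among mitochondrial UMIs was lowest in NdpKO replicate 1 in 11 of 11 classes, as was that of mt-Cytb. In fibroblast-like cells NdpKO replicate 2 was the highest library for mt-Nd4l. The mt-Nd5 share was lowest in NdpKO replicate 1 in 10 of 11 classes, with fibroblast-like cells as the exception.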

How the results depend on the processing

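With 2 libraries per genotype, the main limit is the spread between replicates. The call of a member was the same in most alternatives: DESeq2, plain totals, totals over nuclear genes, the 5% and 20% mitochondrial limits, no limit, stricter depth, kept doublets and (chosen after seeing the data) leaving out low-depth clusters gave 0 calls of members. Of the counts of called members, 12 of 164 mitochondrial and 7 of 164 nuclear ones moved. Without the low-count filter edgeR called 3 nuclear (Sdhc, Sdhd, Uqcr11) and 3 mitochondrially encoded members in fibroblast-like cells and 1 mitochondrially encoded member each in endothelial-like (mt-Nd4l, lower), macrophage-like and mural-like cells (mt-Nd3), where it called 2.25%, 4.41%, 0.458% and 0.788% of all genes. Without NdpWT replicate 1 it called 4 nuclear (Ndufa1, Ndufa3, Sdhd, Uqcr11) and 1 mitochondrially encoded member (mt-Atp8) in fibroblast-like cells, 2 nuclear (Ndufa1, Ndufa3) in granule lineage-like and in macrophage-like cells, and 1 mitochondrially encoded (mt-Nd3) in the latter (all genes: 2.00%, 2.52% and 0.842%). Without NdpKO replicate 2 it called 2 mitochondrially encoded members in endothelial-like cells (mt-Nd3 higher, mt-Nd4l lower), and 1 each in mural-like (mt-Nd3) and other neuron-like cells (mt-Nd4l) (all genes: 6.59%, 0.53% and 1.5%). Leaving out NdpWT replicate 2 or NdpKO replicate 1 gave 0 (all genes and classes: 0.794% and 0.44%). These fits assume that the lone library varies like the others, and the cause was not tested.

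With the replicate number as a block, edgeR called 7 nuclear (Cox7b, Ndufa1, Ndufb3, Sdhc, Sdhd and Uqcr11 higher, Cox8b lower) and 7 mitochondrially encoded members in fibroblast-like cells, where it called 6.95% of all genes, 1 and 1 in macrophage-like cells (Ndufa1, mt-Nd3; 1.94%) and 1 and 1 in mural-like cells (Cox4i2 lower, adjusted p = 0.0417, and mt-Nd3; 1.86%). The labels do not tie the number to the litter match; deviations of same-numbered libraries correlated at 0.06 to 0.34 over genes in the 11 classes. The log2 ratio of the mitochondrial share in fibroblast-like cells moved from 0.41 to 0.19 at the 5% limit. Leaving out 1 library in turn, it ran from 0.29 to 0.52 there, 0.08 to 0.44 over all cells, -0.23 to 0.10 in endothelial-like, -0.13 to 0.26 in granule lineage-like, 0.08 to 0.32 in macrophage-like and 0.039 to 0.27 in mural-like cells. For the nuclear share the ranges were 0.14 to 0.24, 0.039 to 0.24, -0.14 to 0.022, -0.047 to 0.18, -0.0018 to 0.17 and -0.03 to 0.17 in the same order. The ratios thus changed sign with the library left out in endothelial-like and granule lineage-like cells, and for the nuclear share also in macrophage-like and mural-like cells.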

Other observations

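Some values of a rare form lay outside the compared classes. In mast-like cells Cox6b2 made up 22.2%, 15.8%, 30.7% and 28.7% of the Cox6b1 and Cox6b2 UMIs, from 18, 18, 10 and 30 cells. No comparison was made on these values.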
